A study of Mus musculus with 12 samples.

Results

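The 38 genes described here encode parts of the autophagy and lysosome pathway, and they were listed by name, with earlier results of these data known. They were read from 12 RNA-seq libraries of sorted mouse bone marrow LSK cells, the lineage-negative cells with Sca1 and c-Kit on their surface that hold haematopoietic stem cells and early progenitors. All 38 were among the 55487 genes listed for every library, and all 38 passed the filter on low counts that left 16649 genes for testing. The libraries fall into 3 genotypes of 4 libraries each. Cells labelled Yy1-/- Smc3+/- are deleted for the transcription factor Yy1 and heterozygous for Smc3, a subunit of the cohesin ring that shapes chromatin loops. Cells labelled Yy1-/- are deleted for Yy1 alone, and Yy1+/+ cells are the wild type. The sources used here do not give the driver of the deletion, the age and sex of the mice, or whether a library held 1 animal, so p-values measure the spread between these libraries, which may be partly technical.

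Autophagy wraps cell material in a double membrane that fuses with the lysosome, where acid hydrolases digest it. The Ulk1 kinase and the Beclin 1 lipid kinase complex start the membrane, a ubiquitin-like conjugation system attaches the Atg8 family proteins to it, and receptors such as p62 tether cargo to those proteins. Many of these genes are under the control of Tfeb and Tfe3, transcription factors that bind E-box sequences in promoters, and stem cells in the marrow are known to depend on autophagy for their upkeep.

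Levels are given as CPM, expected counts scaled to a common library size, which allow a gene to be compared between libraries but not with another gene. A gene is said to have risen or fallen where the adjusted p of edgeR's quasi-likelihood test, corrected over all 16649 genes by the Benjamini-Hochberg method, was under 0.05. Log2 fold changes are of the first-named genotype over the other and carry the standard error (SE) of the model, and means carry the standard deviation (SD, n = 4 libraries). Library totals ran from 38671354 to 69086104 expected counts, and the lowest expected count of any of the 38 genes in any library was 311. Yy1 itself had 0.772, 0.795, 4.45 and 0.944 CPM in Yy1-/- Smc3+/- libraries, 0.407, 0.996, 5.01 and 12.2 CPM in Yy1-/- libraries, and 33.9, 41.3, 34.2 and 34 CPM in Yy1+/+ libraries. All 8 libraries labelled as lacking it were below all Yy1+/+ libraries, but Yy1-/- Smc3+/- replicate 3 and Yy1-/- replicates 3 and 4 kept more Yy1 reads than the other 5, the most in Yy1-/- replicate 4, so these labels describe genotypes and not a complete absence of Yy1 mRNA. Smc3 averaged 301 CPM in the libraries labelled Yy1-/- Smc3+/-, 255 CPM in Yy1-/- libraries and 177 CPM in Yy1+/+ libraries, so its mRNA was not lower in the libraries labelled heterozygous.

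One other feature of the libraries is set beside the genes below, and its part in their levels was not tested. The summed CPM of 14 monocyte and macrophage markers was 1123, 2330, 1110 and 727 in Yy1-/- Smc3+/- libraries, 10776, 7373, 563 and 968 in Yy1-/- libraries, and 1279, 935, 503 and 714 in Yy1+/+ libraries. Yy1-/- replicates 1 and 2 thus stood far above the other 10 libraries, and C1qb, a complement gene of macrophages, had 2206 and 1540 CPM in them against 9.34 and 74 CPM in Yy1-/- replicates 3 and 4. Not every marker did so, and Ly6c2 had 45.1 and 29.2 CPM in them against 44.4 and 85.6 CPM. None of the 14 markers was at 0 in any whole genotype. Of the 14, 11 rose in Yy1-/- and 9 rose in Yy1-/- Smc3+/-. The genes of the sort markers were detected in every library and differed in behaviour. Kit was at 180 to 373 CPM in Yy1-/- Smc3+/-, 100 to 242 CPM in Yy1-/- and 422 to 981 CPM in Yy1+/+. Its Yy1+/+ libraries lay above all the others. Ly6a (Sca1) was at 150 to 335 CPM in Yy1-/- Smc3+/-, 180 to 380 CPM in Yy1-/- and 151 to 226 CPM in Yy1+/+, and all genotypes overlapped. All 9 stem cell markers fell in both genotypes labelled as lacking Yy1, as did 4 of 5 eosinophil markers. The summed eosinophil CPM was 17.4 to 29.9 in Yy1-/- Smc3+/- and 6.95 to 34.4 in Yy1-/-, against 562, 1965, 143 and 92.6 in Yy1+/+ replicates 1 to 4. In bulk samples, a change in the number of cells of a type and a change in RNA per cell cannot be told apart.

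Of the 38 genes, 11 rose and 5 fell in Yy1-/- against Yy1+/+, and 22 did not pass the test. Over all tested genes, 16.3% rose and 18.8% fell. The median log2 fold change was 0.33 over the 38 genes and 0.01 over all genes. Against Yy1+/+, 3 of the 38 in Yy1-/- Smc3+/- rose and 5 fell, beside 13.1% and 16.7% of all genes, and the median was 0.10 over the 38 genes and 0.02 over all genes. As shares of the 38, 28.9% rose and 13.2% fell in Yy1-/-, and 7.89% rose and 13.2% fell in Yy1-/- Smc3+/-, so that only the share that rose in Yy1-/- was above that of all genes. The 4 libraries of Yy1-/- lay wholly above the 4 of Yy1+/+ for 8 of the 38 genes and wholly below them for 5, against 13.4% and 17.5% of all tested genes. For Yy1-/- Smc3+/- these numbers were 4 and 5, against 14.7% and 17.6% of all tested genes. Both comparisons use the same Yy1+/+ libraries.

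On length-corrected values without the main test's scaling between libraries (log2 of TPM plus 1, tested with limma), the balance moved towards lower levels. The median of all genes was then -0.18 in Yy1-/- and -0.11 in Yy1-/- Smc3+/-, with 5 of the 38 genes higher and 9 lower in Yy1-/- (13.2% and 23.7%, against 8.68% and 26% of all genes). In Yy1-/- Smc3+/- 2 were higher and 7 lower (5.26% and 18.4%, against 7.8% and 20.9% of all genes). With effective lengths entered as offsets in edgeR and its scaling kept, 10 were higher and 6 lower in Yy1-/-. These were 26.3% and 15.8% of the 38, against 15.3% and 19.5% of all genes, whose median was -0.02.

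**Figure D1:**
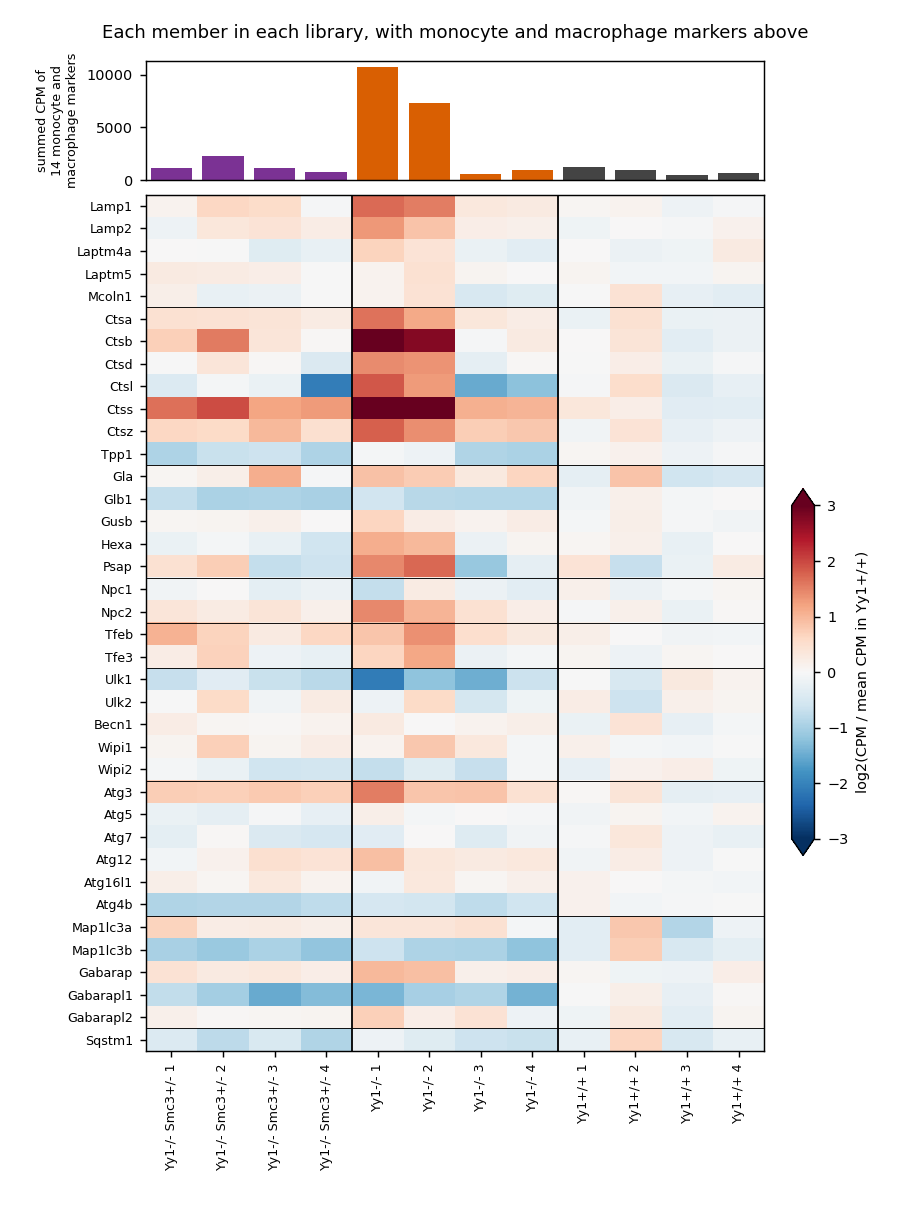
Colour shows the log2 ratio of each gene's CPM in each library (columns) to its mean CPM in Yy1+/+, with genes (rows) grouped by role and values beyond 3 drawn at the end of the scale, and bars above show the summed CPM of 14 monocyte and macrophage markers. Yy1-/- replicates 1 and 2, with marker sums of 10776 and 7373 CPM, are red for Ctsb and Ctss, while Glb1, Atg4b, Map1lc3b and Gabarapl1 are blue in all 8 libraries without Yy1.

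**Figure D2:**
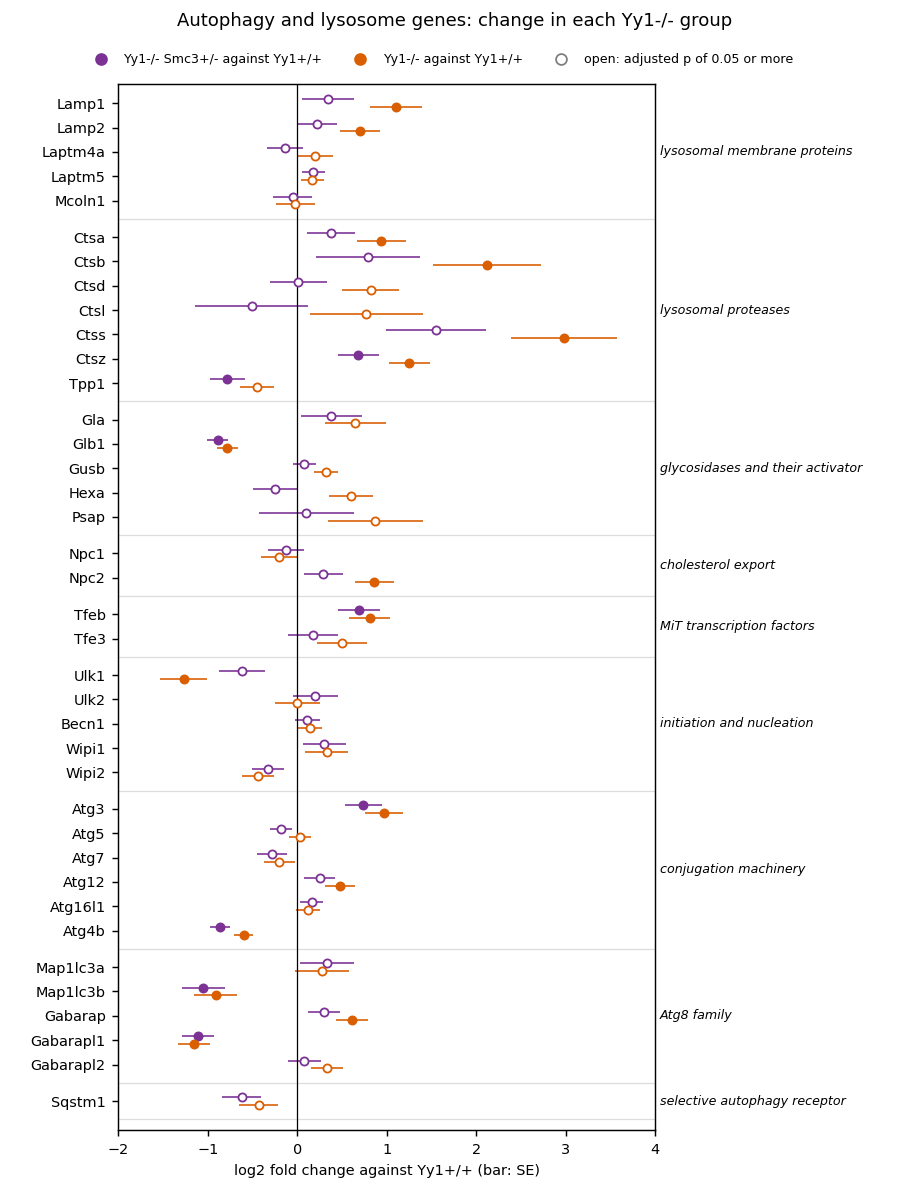
Points show the log2 fold change of each of the 38 genes against Yy1+/+ (x axis) with its SE as a bar, purple for Yy1-/- Smc3+/- and orange for Yy1-/-, filled where the adjusted p was under 0.05. In Yy1-/- 11 points are filled right of 0 and 5 left of it, and in Yy1-/- Smc3+/- 3 and 5.

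Promoter sequences are shown for 4 genes that behaved differently while sharing the CACGTG core of the E-box: Atg3, which rose in both genotypes labelled as lacking Yy1, Lamp1, which rose in Yy1-/-, Glb1, which fell in both, and Mcoln1, which was called in neither. They come from RefSeq on build GRCm38.p6, all on the plus strand, 5′ to 3′, and only the bases before the start site that lie in no annotated exon are printed. Capitals mark each CACGTG and, in Atg3, the 8-letter TCACGTGA that contains it. The stretches are chr16:45158707-45158784 for Atg3, chr8:13158911-13159160 for Lamp1, chr9:114400828-114401075 for Glb1 and chr8:3500269-3500456 for Mcoln1, and each ends where the first annotated exon begins.
Atg3: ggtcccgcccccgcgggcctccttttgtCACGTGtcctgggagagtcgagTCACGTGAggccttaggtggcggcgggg
Lamp1: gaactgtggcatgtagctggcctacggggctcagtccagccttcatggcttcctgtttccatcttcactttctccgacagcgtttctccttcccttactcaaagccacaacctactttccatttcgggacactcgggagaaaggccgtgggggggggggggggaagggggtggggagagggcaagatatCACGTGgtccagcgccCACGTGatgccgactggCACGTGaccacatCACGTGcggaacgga
Glb1: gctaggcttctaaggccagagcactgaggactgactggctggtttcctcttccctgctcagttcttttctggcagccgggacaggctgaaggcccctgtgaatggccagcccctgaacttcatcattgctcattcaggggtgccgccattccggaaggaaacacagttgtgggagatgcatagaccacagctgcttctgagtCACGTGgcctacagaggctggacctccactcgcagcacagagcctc
Mcoln1: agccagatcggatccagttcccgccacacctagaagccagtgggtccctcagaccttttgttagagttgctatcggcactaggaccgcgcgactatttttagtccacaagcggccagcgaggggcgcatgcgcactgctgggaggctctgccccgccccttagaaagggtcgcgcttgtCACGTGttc
The Lamp1 stretch holds 4 copies of CACGTG within its last bases, and the Glb1 and Mcoln1 stretches hold 1 each. Mcoln1 has a further copy, within a TCACGTGA, in exon sequence that is not shown.

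Over the promoters of RefSeq, each 300 bases long with 250 before and 50 after a start site, 32 of the 38 genes had an entry. CACGTG, searched on both strands, was in a promoter of 10 of the 32, or 31.2%, against 8.09% of all 27025 genes with an entry. These 10 were Atg3, Atg5, Atg7, Ctsa, Ctsd, Ctsl, Gla, Glb1, Lamp1 and Mcoln1. TCACGTGA, the core of the element that Tfeb binds, was in 5 of the 32, or 15.6%, against 1.12% of all genes, and every TCACGTGA is also counted as a CACGTG. AANATGGC, the core of the motif that Yy1 binds, was in 3 of the 32, or 9.38%, against 6.96% of all genes, in Atg4b, Atg7 and Npc2. Of the 10 genes with CACGTG, 3 rose and 1 fell in Yy1-/-, and 1 rose and 1 fell in Yy1-/- Smc3+/-. Of the 22 without it, 6 rose and 4 fell in Yy1-/-, and 2 rose and 4 fell in Yy1-/- Smc3+/-. The shares of all tested genes that rose and fell were 16.3% and 18.8% in Yy1-/-, and 13.1% and 16.7% in Yy1-/- Smc3+/-. A match of letters is not a bound site.

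The 19 lysosomal genes of the set moved mainly upward in Yy1-/-, where 7 rose, 1 fell and the median log2 fold change was 0.70. For Yy1-/- Smc3+/- 1 rose, 2 fell and the median was 0.10. Beside them, 16.3% of all tested genes rose and 18.8% fell in Yy1-/-, and 13.1% and 16.7% in Yy1-/- Smc3+/-. When Yy1-/- replicates 1 and 2 were left out, a choice made after their marker levels were seen, 2 rose and 2 fell in Yy1-/- and the median was 0.01. Thus 5 of the 7 rises were not called without the pair of libraries with high monocyte and macrophage markers. Calls over all genes were also fewer in that smaller design, 9.73% higher and 13% lower, and of the 38 genes 7.89% were then higher and 15.8% lower.

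Lamp1 and Lamp2 encode the most abundant glycoproteins of the lysosomal membrane, and Lamp2 also serves as the receptor of chaperone-mediated autophagy. Lamp1 had 344, 491, 465 and 312 CPM in Yy1-/- Smc3+/-, 1031, 920, 396 and 385 CPM in Yy1-/-, and 333, 343, 286 and 308 CPM in Yy1+/+. All 4 Yy1-/- libraries lay above Yy1+/+, by far the most in replicates 1 and 2. Lamp1 rose in Yy1-/- with a log2 fold change of 1.10 (SE 0.29, adjusted p = 0.0109), and without those 2 libraries it was not called (0.26, SE 0.18). Lamp2 had 177, 249, 263 and 228 CPM in Yy1-/- Smc3+/-, 481, 354, 224 and 220 CPM in Yy1-/-, and 181, 197, 193 and 215 CPM in Yy1+/+, again with no overlap between Yy1-/- and Yy1+/+. Lamp2 rose in Yy1-/- by 0.70 (SE 0.22, adjusted p = 0.0268), and was not called without the same libraries (0.14, SE 0.16). Neither passed the test in Yy1-/- Smc3+/-, with 0.34 for Lamp1 and 0.22 for Lamp2.

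Lamp2 also differed in its transcript length, the abundance-weighted mean over its isoforms that RSEM reports. The length averaged 2585.2 bases in Yy1-/- Smc3+/- (2496.77 to 2708.85), 2558.7 in Yy1-/- (2475.62 to 2629.89) and 2874.6 in Yy1+/+ (2757.77 to 2949.21). All 8 libraries labelled as lacking Yy1 lay below all 4 Yy1+/+ libraries, at 89.93% of the Yy1+/+ mean in Yy1-/- Smc3+/- and 89.01% in Yy1-/-. These 8 include Yy1-/- replicates 3 and 4, where the marker sums were low, and the part of cell types in this length was not tested. No other gene of the 38 differed in mean length by as much, and Lamp2 is known to give several isoforms by the choice of its last exon.

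Mcoln1 encodes the calcium channel TRPML1 of the lysosome, through which calcium release activates Tfeb. It had 66.3, 50.1, 51.5 and 57.9 CPM in Yy1-/- Smc3+/-, 63.3, 79.3, 41.7 and 45.8 CPM in Yy1-/-, and 58.3, 79.5, 49.6 and 46.6 CPM in Yy1+/+. The genotypes overlapped widely, with log2 fold changes of -0.02 (95% interval -0.50 to 0.45) in Yy1-/- and -0.05 (-0.53 to 0.42) in Yy1-/- Smc3+/-. Laptm5, a lysosomal membrane protein specific to blood cells that lowers antigen receptor levels, had the highest length-corrected level of the 38 genes in every genotype, 575 ± 59.9 TPM in Yy1-/- Smc3+/-, 538 ± 88.4 TPM in Yy1-/- and 580 ± 83.2 TPM in Yy1+/+. Neither Laptm5 nor Laptm4a, a related transporter-like protein, passed a test.

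Among the 7 protease genes, 4 rose and none fell in Yy1-/-, and 1 rose and 1 fell in Yy1-/- Smc3+/-. The shares of all tested genes were 16.3% and 18.8% in Yy1-/-, and 13.1% and 16.7% in Yy1-/- Smc3+/-. Ctss, cathepsin S, which trims the invariant chain in cells that present antigen, had 204, 250, 147 and 157 CPM in Yy1-/- Smc3+/-, 1157, 629, 136 and 131 CPM in Yy1-/-, and 81.6, 74.4, 50.8 and 52.4 CPM in Yy1+/+. All 8 libraries labelled as lacking Yy1 lay above all Yy1+/+ libraries. Of the 14 monocyte and macrophage markers, 9 rose and 0 fell in Yy1-/- Smc3+/-. Their summed CPM overlapped, at 727 to 2330 in Yy1-/- Smc3+/- and 503 to 1279 in Yy1+/+. C1qb was at 15.2 to 461 CPM in Yy1-/- Smc3+/-, against 4.33 to 23.1 CPM in Yy1+/+. Lyz2 was at 267 to 730 CPM against 342 to 821 CPM. The part of such cells in the level of Ctss was not tested. The log2 fold change was 2.98 in Yy1-/- (SE 0.59, adjusted p = 0.00194) and 1.55 in Yy1-/- Smc3+/- (SE 0.56, adjusted p = 0.0525), so only the first passed the threshold. The second passed it in 7 of 22 alternatives, with adjusted p between 0.000319 and 0.125, among them the one without Yy1-/- replicates 1 and 2 (1.51, SE 0.21). Without Yy1-/- replicates 1 and 2, Ctss still rose in Yy1-/-, by 1.01 (SE 0.24).

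Ctsz, cathepsin Z, a carboxypeptidase, had 272, 265, 350 and 247 CPM in Yy1-/- Smc3+/-, 610, 469, 297 and 308 CPM in Yy1-/-, and 166, 235, 149 and 159 CPM in Yy1+/+. Its genotypes labelled as lacking Yy1 did not overlap with Yy1+/+ either. Ctsz rose by 1.25 in Yy1-/- (SE 0.23, adjusted p = 0.00128) and by 0.68 in Yy1-/- Smc3+/- (SE 0.23, adjusted p = 0.0391), and without Yy1-/- replicates 1 and 2 its rise in Yy1-/- was 0.74 (SE 0.19) and still called. The call in Yy1-/- Smc3+/- was lost in 11 of 22 alternatives, with adjusted p between 0.0113 and 0.109.

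Ctsb and Ctsa rose in Yy1-/- in a way that followed the same libraries. Ctsb, cathepsin B, had 3004, 2381, 347 and 428 CPM in Yy1-/- against 354 ± 78.9 CPM in Yy1+/+, a log2 fold change of 2.12 (SE 0.60, adjusted p = 0.0146) that was 0.10 (SE 0.35) and not called without replicates 1 and 2. Ctsa, the protective protein that stabilises beta-galactosidase, averaged 387 ± 179 CPM in Yy1-/- and 201 ± 50.8 CPM in Yy1+/+, and its rise of 0.94 (adjusted p = 0.0155) was 0.26 (SE 0.19) and not called without them. The expected counts of Ctsb and Ctsa were fractional in all 12 libraries, so reads were divided between them and other genes and their levels are less certain.

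Tpp1, a tripeptidyl peptidase whose human gene is mutated in a childhood neuronal storage disease, went the other way. It averaged 87.3 ± 9.96 CPM in Yy1-/- Smc3+/-, 109 ± 35.1 CPM in Yy1-/- and 150 ± 13.4 CPM in Yy1+/+. Tpp1 fell in Yy1-/- Smc3+/- by 0.78 on the log2 scale (SE 0.20, adjusted p = 0.00957), with no overlap. In Yy1-/- its change of -0.45 (SE 0.19) did not pass the test (adjusted p = 0.0874), but it did without replicates 1 and 2 (-0.95, SE 0.15). Ctsd and Ctsl, cathepsins D and L, passed in neither comparison. Ctsd had 1223, 1156, 381 and 471 CPM in Yy1-/- and 456 ± 53.5 CPM in Yy1+/+, so that it too was high only in replicates 1 and 2 of Yy1-/-. Of its exon bases, 34.4% lie in another annotated gene.

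Glb1, the beta-galactosidase whose activity is used as a stain for senescent cells, was the 1 glycosidase gene called in either comparison. It had 76.7, 65.9, 66.4 and 64.8 CPM in Yy1-/- Smc3+/-, 84.5, 71, 69.6 and 69.7 CPM in Yy1-/-, and 118, 140, 122 and 127 CPM in Yy1+/+. The 8 libraries labelled as lacking Yy1 were all below the lowest Yy1+/+ library, and replicates 1 and 2 of Yy1-/- did not stand apart downward. Glb1 fell by 0.78 in Yy1-/- (SE 0.12, adjusted p = 0.000322) and by 0.89 in Yy1-/- Smc3+/- (SE 0.12, adjusted p = 0.000154) on the log2 scale, and it was called in every alternative run. The gene lies at chr9:114401076-114474898.

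Gusb, beta-glucuronidase, had 203, 209, 218 and 197 CPM in Yy1-/- Smc3+/-, 307, 229, 210 and 230 CPM in Yy1-/-, and 188, 222, 192 and 182 CPM in Yy1+/+. Its genotypes overlapped, and its change of 0.32 in Yy1-/- (SE 0.13) did not pass (adjusted p = 0.0707). Gla, Hexa and Psap, which encode alpha-galactosidase A, a subunit of beta-hexosaminidase and the precursor of the saposins that present lipids to these enzymes, passed no test. Their log2 fold changes were 0.65, 0.60 and 0.87 in Yy1-/- and 0.38, -0.25 and 0.10 in Yy1-/- Smc3+/-.

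Npc2 and Npc1 hand cholesterol on from the lysosome. Npc2, the soluble carrier, had 170, 155, 172 and 145 CPM in Yy1-/- Smc3+/-, 359, 266, 180 and 150 CPM in Yy1-/-, and 128, 147, 115 and 135 CPM in Yy1+/+. It rose in Yy1-/- by 0.86 (SE 0.22, adjusted p = 0.0085), all 4 libraries lying above Yy1+/+, and was not called (0.30, SE 0.14) without replicates 1 and 2. Npc1, the membrane carrier, averaged 20 ± 1.82 CPM in Yy1-/- Smc3+/-, 19 ± 5.24 CPM in Yy1-/- and 22 ± 2.18 CPM in Yy1+/+ and passed neither test.

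Tfeb, the master regulator named above, had 46.6, 36, 27.3 and 34.4 CPM in Yy1-/- Smc3+/-, 40, 58.4, 31.8 and 27.5 CPM in Yy1-/-, and 25.3, 22.6, 20.8 and 21.2 CPM in Yy1+/+. Its genotypes labelled as lacking Yy1 lay wholly above Yy1+/+. Tfeb rose by 0.81 in Yy1-/- (SE 0.23, adjusted p = 0.015) and by 0.69 in Yy1-/- Smc3+/- (SE 0.23, adjusted p = 0.0392). The second call was lost in 12 of 22 alternatives, with adjusted p between 0.0158 and 0.145, and the first in 2, one of which left out Yy1-/- replicates 1 and 2 (0.37, SE 0.21). Tfe3 had 38.7, 53.4, 30 and 28.2 CPM in Yy1-/- Smc3+/-, 51.5, 74.4, 29.2 and 32 CPM in Yy1-/-, and 35.1, 29.9, 34.2 and 33.2 CPM in Yy1+/+. It overlapped between genotypes and was not called, with 0.50 (SE 0.28) in Yy1-/- and 0.18 (SE 0.28) in Yy1-/- Smc3+/-.

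The 17 autophagy genes of the set moved in both directions. There were 3 rises and 4 falls in Yy1-/- (median log2 fold change 0.03), and 1 rise and 3 falls in Yy1-/- Smc3+/- (median 0.08). Of all tested genes, 16.3% rose and 18.8% fell in Yy1-/-, and 13.1% and 16.7% in Yy1-/- Smc3+/-. Without Yy1-/- replicates 1 and 2, 1 rose and 4 fell in Yy1-/-, so that the calls downward numbered the same. Of all genes, 9.73% were then higher and 13% lower.

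Ulk1, the kinase that receives the starvation signal and starts autophagosome formation, had 40.6, 52.4, 41.5 and 37.4 CPM in Yy1-/- Smc3+/-, 15.4, 28.4, 23.7 and 42 CPM in Yy1-/-, and 64.9, 46.9, 80.7 and 71.3 CPM in Yy1+/+. The Yy1-/- libraries lay wholly below Yy1+/+. Of the Yy1-/- Smc3+/- libraries, 3 lay inside the Yy1-/- range and 1 inside the Yy1+/+ range. Ulk1 fell in Yy1-/- by 1.27 on the log2 scale (SE 0.26, adjusted p = 0.00256), also without replicates 1 and 2 (-1.04, SE 0.28), and had -0.62 (SE 0.26, adjusted p = 0.0873) in Yy1-/- Smc3+/-. Wipi2, which reads the lipid made by the Beclin 1 complex and brings in the conjugation enzymes, had 121, 109, 82.4 and 85.2 CPM in Yy1-/- Smc3+/-, 75.9, 96.8, 77.4 and 120 CPM in Yy1-/-, and 106, 137, 144 and 115 CPM in Yy1+/+. It passed in neither comparison, with -0.44 (SE 0.18, adjusted p = 0.074) in Yy1-/-. Ulk2, Becn1 and Wipi1 were not called, with log2 fold changes between 0.00 and 0.33 in both comparisons, and 43.9% of the exon bases of Becn1 are shared with a neighbouring gene.

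In the conjugation machinery, Atg3 and Atg4b moved in opposite directions in both genotypes. Atg3, the enzyme that attaches Atg8 proteins to lipid, had 115, 114, 118 and 114 CPM in Yy1-/- Smc3+/-, 199, 122, 125 and 95.1 CPM in Yy1-/-, and 70.6, 90.5, 57.1 and 57.7 CPM in Yy1+/+. No library labelled as lacking Yy1 overlapped with Yy1+/+. Atg3 rose by 0.97 in Yy1-/- (SE 0.21, adjusted p = 0.00325) and by 0.74 in Yy1-/- Smc3+/- (SE 0.21, adjusted p = 0.0175), and without Yy1-/- replicates 1 and 2 by 0.64 in Yy1-/- (SE 0.19).

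Atg4b, the protease that primes Atg8 proteins and cuts them off the lipid again, had 44.3, 45, 45 and 48.6 CPM in Yy1-/- Smc3+/-, 58.4, 56.3, 48.4 and 54.7 CPM in Yy1-/-, and 90.8, 77.6, 80.1 and 82.3 CPM in Yy1+/+. Both genotypes labelled as lacking Yy1 lay wholly below Yy1+/+, and the libraries of each genotype lay close together. Atg4b fell by 0.60 in Yy1-/- (SE 0.11, adjusted p = 0.00142) and by 0.86 in Yy1-/- Smc3+/- (SE 0.11, adjusted p = 0.000164) on the log2 scale, in every alternative run. The Yy1 motif core AANATGGC was found in a RefSeq promoter of Atg4b at positions -249 and -124, the first base of that transcript being position 0. That promoter, chr1:93754655-93754954, lies inside the annotated gene, which begins at chr1:93751500. The same core was in promoters of Atg7, called in neither comparison, and Npc2, which rose in Yy1-/-. The Atg7 promoter, chr6:114670846-114671145, also lies inside its annotated gene, which begins at chr6:114643097. A match of letters does not show binding. Atg12, the ubiquitin-like partner of Atg5, rose in Yy1-/- by 0.48 (SE 0.17, adjusted p = 0.0464), a call lost in 15 of 22 alternatives. Atg5, Atg7 and Atg16l1, the other parts of the conjugation system in the set, were called in neither comparison and had log2 fold changes between -0.28 and 0.16.

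**Figure D3:**
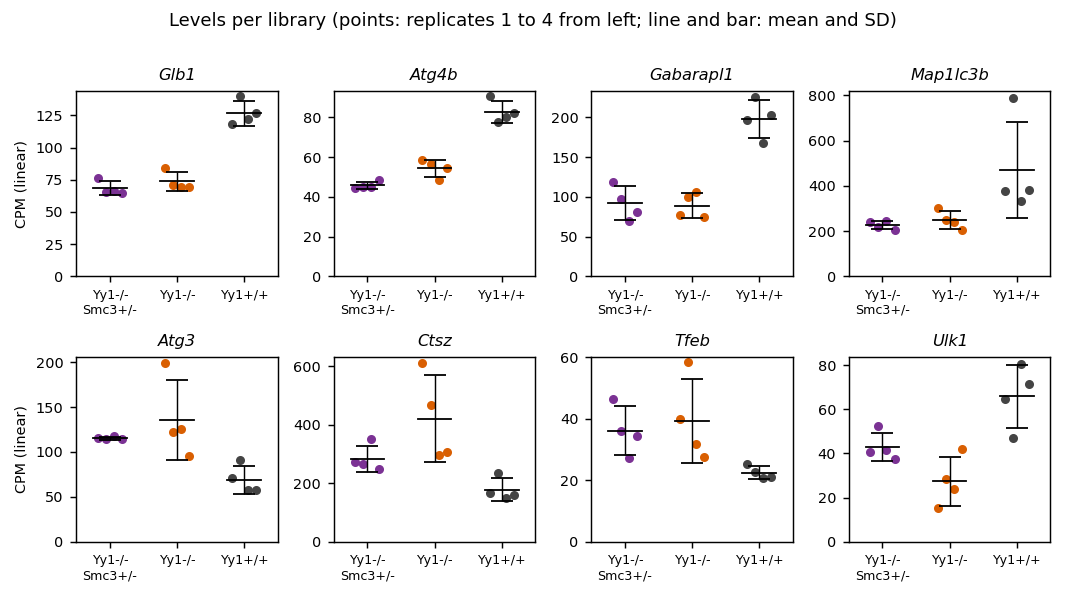
Points show CPM (y axis, linear, from 0) in each library for 8 genes, with Yy1-/- Smc3+/- left, Yy1-/- in the middle and Yy1+/+ right, and lines and bars show the mean and SD. Glb1, Atg4b, Gabarapl1 and Map1lc3b are lower in all 8 libraries labelled as lacking Yy1 than in Yy1+/+, and Atg3, Ctsz and Tfeb are higher, while Ulk1 overlaps between Yy1-/- Smc3+/- and Yy1+/+.

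The Atg8 family, the proteins that coat the autophagosome membrane, was split. Its 5 genes gave 1 rise and 2 falls in Yy1-/-, and no rise and 2 falls in Yy1-/- Smc3+/-. Among all tested genes the shares were 16.3% and 18.8% in Yy1-/-, and 13.1% and 16.7% in Yy1-/- Smc3+/-. Gabarapl1 had 119, 97.6, 69.9 and 80.4 CPM in Yy1-/- Smc3+/-, 76.5, 99.4, 106 and 74.3 CPM in Yy1-/-, and 197, 225, 167 and 203 CPM in Yy1+/+. Every library labelled as lacking Yy1 was below every Yy1+/+ library. Gabarapl1 fell by 1.15 in Yy1-/- (SE 0.18, adjusted p = 0.000409) and by 1.11 in Yy1-/- Smc3+/- (SE 0.18, adjusted p = 0.000582) on the log2 scale, in every alternative run. Of its exon bases, 28.3% lie in another annotated gene, and its counts were whole in all 12 libraries.

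Map1lc3b, the LC3 protein most used as a mark of autophagosomes, had 240, 218, 243 and 207 CPM in Yy1-/- Smc3+/-, 304, 247, 242 and 203 CPM in Yy1-/-, and 375, 789, 334 and 381 CPM in Yy1+/+. Both genotypes labelled as lacking Yy1 lay wholly below Yy1+/+, and replicate 2 of Yy1+/+ stood far above the other Yy1+/+ libraries. Map1lc3b fell by 0.91 in Yy1-/- (SE 0.24, adjusted p = 0.00936) and by 1.05 in Yy1-/- Smc3+/- (SE 0.24, adjusted p = 0.0053) on the log2 scale. Both calls held without Yy1+/+ replicate 2, and the call in Yy1-/- was lost (-0.80, SE 0.32) only when the 3 libraries with residual Yy1 reads were left out. The expected counts of Map1lc3b were fractional in all 12 libraries.

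Gabarap had 158, 142, 145 and 134 CPM in Yy1-/- Smc3+/-, 230, 220, 131 and 134 CPM in Yy1-/-, and 122, 108, 105 and 134 CPM in Yy1+/+. It was high in Yy1-/- replicates 1 and 2 and overlapped otherwise. Gabarap rose in Yy1-/- by 0.61 (SE 0.18, adjusted p = 0.0205), and was not called without those libraries (0.15, SE 0.14). Gabarapl2 had 105, 96.3, 98.4 and 99.4 CPM in Yy1-/- Smc3+/-, 154, 109, 128 and 84.4 CPM in Yy1-/-, and 86.6, 115, 76.1 and 99.4 CPM in Yy1+/+. Map1lc3a, the least abundant, had 19.4, 14.2, 14.5 and 13.8 CPM in Yy1-/- Smc3+/-, 15.7, 15.6, 16.7 and 11.8 CPM in Yy1-/-, and 9.79, 21.4, 6.7 and 11 CPM in Yy1+/+. Gabarapl2 and Map1lc3a overlapped between all genotypes and passed no test.

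Length-corrected values show the same split as a change in the make-up of the family, described here without a test. Gabarapl1 made up 13.7 ± 2.46% of the summed TPM of the 5 genes in Yy1-/- Smc3+/-, 11.9 ± 2.95% in Yy1-/- and 22.9 ± 2.43% in Yy1+/+. Map1lc3b made up 25.1 ± 2.07% in Yy1-/- Smc3+/-, 24.5 ± 1.88% in Yy1-/- and 37 ± 7.82% in Yy1+/+. Gabarap made up 40.4 ± 0.419% in Yy1-/- Smc3+/-, 42.8 ± 5.81% in Yy1-/- and 25.7 ± 5.46% in Yy1+/+, and was the largest of the 5 in both genotypes labelled as lacking Yy1, whereas Map1lc3b was the largest in Yy1+/+. The ranges of these 3 shares did not overlap with Yy1+/+. For Gabarap they were 39.9 to 40.9% in Yy1-/- Smc3+/-, 35.3 to 48.4% in Yy1-/- and 17.6 to 29.1% in Yy1+/+. The share of Gabarapl2, which passed no test on its own level, was apart as well. It was 15.8 to 17.7% in Yy1-/- Smc3+/-, 14.3 to 20.4% in Yy1-/- and 10.9 to 12.6% in Yy1+/+. A share shows unequal change within the family, not which gene moved.

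**Figure D4:**
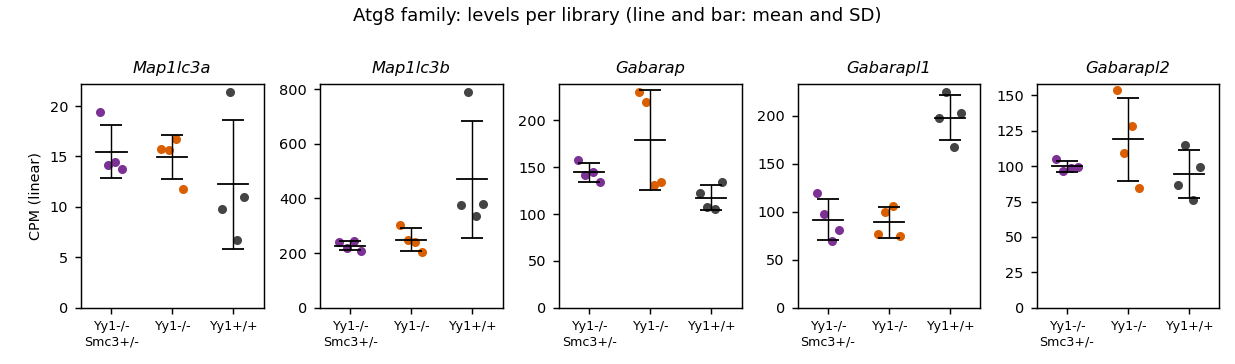
Points show CPM (y axis, linear, from 0) of the 5 Atg8 family genes in each library, with Yy1-/- Smc3+/- left, Yy1-/- in the middle and Yy1+/+ right, and lines and bars show the mean and SD. Gabarapl1 and Map1lc3b are lower in all 8 libraries labelled as lacking Yy1, Gabarap is high in 2 Yy1-/- libraries at 230 and 220 CPM, and the other genes overlap.

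Sqstm1, the p62 receptor that carries ubiquitin-tagged cargo into autophagosomes, had 289, 223, 281 and 208 CPM in Yy1-/- Smc3+/-, 350, 302, 249 and 243 CPM in Yy1-/-, and 332, 605, 278 and 329 CPM in Yy1+/+. The genotypes overlapped, and Yy1+/+ replicate 2 was again the highest. Sqstm1 had -0.43 (SE 0.22, adjusted p = 0.152) in Yy1-/- and -0.62 (SE 0.22, adjusted p = 0.0516) in Yy1-/- Smc3+/-, which passed the threshold in 11 of 22 alternatives. In Yy1+/+ replicate 2 the summed CPM of 8 immediate early and heat shock genes, a list drawn up after the values were seen, was 20243, against 753 to 8796 in the other Yy1+/+ libraries, 880 to 6331 in Yy1-/- Smc3+/- and 435 to 3244 in Yy1-/-. The same library had the highest eosinophil marker sum, 1965 CPM. The part of these differences in the levels of Sqstm1 and Map1lc3b was not tested.

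Both comparisons so far share the Yy1+/+ libraries, so their calls are not independent. The genotypes labelled as lacking Yy1 were also set against each other. Between Yy1-/- Smc3+/- and Yy1-/-, none of the 38 genes passed the test in edgeR or in DESeq2, and of all tested genes 0.036% were higher and 0% lower in Yy1-/- Smc3+/-. At an unadjusted p under 0.05, 1 of the 38 was higher, Ulk1, and 8 were lower, Lamp1, Ctsb, Ctsd, Ctss, Ctsz, Hexa, Npc2 and Atg4b, while 1076 of all 16649 genes were under that limit. The median log2 fold change of the 38 genes was -0.24, against 0.00 for all genes, and 30 of the 38 were below 0. Without Yy1-/- replicates 1 and 2 the median was 0.05.

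When the 3 libraries with residual Yy1 reads were left out, 10 of the 38 genes, all lysosomal, fell in Yy1-/- Smc3+/- against Yy1-/-: Lamp1, Lamp2, Ctsb, Ctsd, Ctsl, Ctss, Ctsz, Tpp1, Hexa and Npc2. That choice leaves only replicates 1 and 2 of Yy1-/-, the libraries with the high macrophage markers. Lamp1 then had -1.36 (SE 0.20) and Ctss -2.14 (SE 0.30). Over all genes 34 were higher and 277 lower, or 0.193% and 1.57%, against 0% and 26.3% of the 38 genes. Residual Yy1 reads and macrophage markers ran in opposite directions among the Yy1-/- libraries, so their parts cannot be told apart.

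Among themselves the 38 genes covered a wide range of length-corrected levels. In Yy1+/+ the highest were Laptm5 at 580 ± 83.2 TPM, Ctsd at 344 ± 12.2, Psap at 335 ± 122, Map1lc3b at 297 ± 93.7 and Sqstm1 at 288 ± 67.7 TPM, and the last 4 did not differ beyond their spread. The lowest were Npc1 at 6.21 ± 1.12, Wipi1 at 6.15 ± 0.907 and Gla at 5.99 ± 2.36 TPM, which did not differ beyond theirs either. Map1lc3b was at 134 ± 7.11 TPM and Sqstm1 at 169 ± 21.8 TPM in Yy1-/- Smc3+/-, and in Yy1-/- they were at 141 ± 14.2 and 180 ± 19.9 TPM. Ctss was at 222 ± 66.3 TPM in Yy1-/- Smc3+/-, 532 ± 471 TPM in Yy1-/- and 85 ± 18.2 TPM in Yy1+/+.

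The rest of the pathway was read from 159 further genes, of which 157 passed the filter. Of these 26 (16.6%) rose and 33 (21.0%) fell in Yy1-/-, close to the 16.3% and 18.8% of all tested genes. The median change was -0.03. In Yy1-/- Smc3+/- 13 (8.28%) rose and 34 (21.7%) fell, against 13.1% and 16.7% of all tested genes, and the median was -0.10. Without Yy1-/- replicates 1 and 2, of 158 genes tested, 11 rose and 30 fell in Yy1-/-, against 9.73% and 13% of all genes. The lists below are parts of these genes, and the same shares of all genes stand beside their counts. No list was tested as a set.

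Of 12 further receptors and other genes of selective autophagy, none rose and 6 fell in Yy1-/-, and none rose and 7 fell in Yy1-/- Smc3+/-. Leaving out Yy1-/- replicates 1 and 2 also gave 6 falls in Yy1-/-. Calcoco1, a receptor for autophagy of the endoplasmic reticulum and Golgi, averaged 26.2 ± 4.56 CPM in Yy1-/- Smc3+/-, 22 ± 6.44 CPM in Yy1-/- and 64.3 ± 1.81 CPM in Yy1+/+. It fell by 1.54 on the log2 scale in Yy1-/- (SE 0.20, adjusted p = 0.000109). Pink1, the kinase that marks damaged mitochondria for removal, averaged 135 ± 33.1 CPM in Yy1-/- Smc3+/-, 100 ± 28.1 CPM in Yy1-/- and 314 ± 73.1 CPM in Yy1+/+. It fell by 1.65 in Yy1-/- (SE 0.23, adjusted p = 0.000201) and by 1.22 in Yy1-/- Smc3+/- (SE 0.23, adjusted p = 0.00161).

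Of the 17 tested subunits of the vacuolar ATPase, the proton pump that acidifies the lysosome, 7 rose and 1 fell in Yy1-/-, and 2 rose and 1 fell in Yy1-/- Smc3+/-. Without Yy1-/- replicates 1 and 2, of 18 tested, 2 rose and 1 fell in Yy1-/-. Atp6v0c, the proteolipid of the proton channel, averaged 396 ± 96.5 CPM in Yy1-/- Smc3+/-, 493 ± 132 CPM in Yy1-/- and 236 ± 53.2 CPM in Yy1+/+, and rose in both, though the call in Yy1-/- Smc3+/- did not hold once the libraries with residual Yy1 reads were left out (0.52, SE 0.17). Tcirg1, an a subunit of the pump, rose by 0.67 in Yy1-/- (adjusted p = 0.00206) and by 0.73 in Yy1-/- Smc3+/- (adjusted p = 0.00132). Atp6v1b2, a B subunit, fell instead, to 61.5 ± 25.3 CPM in Yy1-/- Smc3+/- and 85 ± 18.4 CPM in Yy1-/-, against 191 ± 28.9 CPM in Yy1+/+.

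Of 35 other lysosomal hydrolases and cofactors, 9 rose and 7 fell in Yy1-/-, and 4 rose and 10 fell in Yy1-/- Smc3+/-. With Yy1-/- replicates 1 and 2 left out, 3 rose and 7 fell in Yy1-/-, and the median turned to -0.28, against 0.21 with all libraries. Lgmn, the asparaginyl endopeptidase legumain, rose the most of those named, to 72.7 ± 49.5 CPM in Yy1-/- Smc3+/- and 216 ± 229 CPM in Yy1-/-, against 5.3 ± 1.34 CPM in Yy1+/+. Its log2 fold change in Yy1-/- was 5.34 (SE 0.94, adjusted p = 0.000946), and 2.37 (SE 0.51) without replicates 1 and 2, where it was still called. Man2b1, lysosomal alpha-mannosidase, rose in both. Ctsf, cathepsin F, fell to 5.61 ± 2.4 CPM in Yy1-/- Smc3+/- and 5.95 ± 1.86 CPM in Yy1-/-, against 66.5 ± 15.7 CPM in Yy1+/+, with log2 fold changes of -3.56 (SE 0.31, adjusted p = 1.05e-05) and -3.47 (SE 0.31, adjusted p = 1.09e-05). Ppt1, a thioesterase that takes palmitate off proteins, also fell, to 57.7 ± 6.16 and 68.1 ± 4.89 CPM in these genotypes, against 152 ± 22.8 CPM in Yy1+/+.

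Of 9 genes that sort enzymes by the mannose 6-phosphate tag, 1 rose and 3 fell in Yy1-/-, and 1 rose and 4 fell in Yy1-/- Smc3+/-. Nagpa, which uncovers the tag, rose by 1.13 in Yy1-/- (SE 0.13, adjusted p = 4.52e-05) and by 1.26 in Yy1-/- Smc3+/- (SE 0.13, adjusted p = 2.7e-05). Gga2, an adaptor that packs tagged enzymes into vesicles, fell by 1.39 in Yy1-/- (SE 0.14, adjusted p = 2.24e-05) and by 1.49 in Yy1-/- Smc3+/- (SE 0.14, adjusted p = 1.5e-05) on the log2 scale. Its relative Gga3 fell in both as well, but in Yy1-/- Smc3+/- was not called without the libraries with residual Yy1 reads (-0.80, SE 0.27). Of 20 other genes of the lysosomal membrane, 19 were tested, and 2 rose and 3 fell in Yy1-/-, with 2 and 4 in Yy1-/- Smc3+/-. Cd68, a macrophage membrane protein, rose by 2.54 in Yy1-/- and 1.48 in Yy1-/- Smc3+/-, and Tmem192 rose by 0.87 and 0.72. Cd63, a tetraspanin of late endosomes, had -2.70 in Yy1-/- and -3.13 in Yy1-/- Smc3+/-, and Laptm4b had -0.63 and -0.59, all called. Cd68 had 1.14 (SE 0.31) in Yy1-/- without its replicates 1 and 2 and was still called, and Laptm4b was not called there (-0.45, SE 0.19). Tmem192 was not called in Yy1-/- Smc3+/- without the libraries with residual Yy1 reads (0.62, SE 0.20).

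Of 18 further genes that start autophagosomes, none rose and 4 fell in Yy1-/-, and none rose and 1 fell in Yy1-/- Smc3+/-. Atg9a, which brings lipid vesicles to the forming membrane, fell by 0.70 in Yy1-/- (SE 0.19, adjusted p = 0.0118), as did Pik3r4, a regulatory subunit of the Beclin 1 lipid kinase complex. Atg9a was not called without the libraries with residual Yy1 reads (-0.55, SE 0.23), and Pik3r4 was not called without Yy1-/- replicates 1 and 2 (-0.69, SE 0.25). Of 5 further conjugation genes, 2 fell in both genotypes, Atg4d, a relative of Atg4b, and Atg16l2, a relative of Atg16l1. Atg16l2 averaged 14.7 ± 3 CPM in Yy1-/- Smc3+/-, 13.6 ± 1.01 CPM in Yy1-/- and 31.6 ± 2.85 CPM in Yy1+/+. Of 13 genes for fusion with the lysosome, 1 rose and 4 fell in Yy1-/-, and none rose and 3 fell in Yy1-/- Smc3+/-. Rab7, the small GTPase of late endosomes, rose in Yy1-/- by 0.52 (adjusted p = 0.0189), and was not called without replicates 1 and 2 (0.20, SE 0.13), while Vps16 and Vps39, of the tethering complexes, fell in Yy1-/- with and without them.

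Of 23 genes of mTORC1 and its scaffold on the lysosome, 6 rose and 2 fell in Yy1-/-, and 3 rose and 1 fell in Yy1-/- Smc3+/-. Leaving out Yy1-/- replicates 1 and 2 gave 2 rises and 1 fall in Yy1-/-, and the median was -0.15, against 0.03 with all libraries. Lamtor4, a subunit of the Ragulator scaffold, rose by 1.21 in Yy1-/- (SE 0.15, adjusted p = 0.000113) and by 1.04 in Yy1-/- Smc3+/- (SE 0.15, adjusted p = 0.000337). Flcn, folliculin, which helps mTORC1 keep Tfeb and Tfe3 out of the nucleus, averaged 79.4 ± 12.6 CPM in Yy1-/- Smc3+/-, 84.7 ± 18.9 CPM in Yy1-/- and 149 ± 16.8 CPM in Yy1+/+. It fell by 0.81 in Yy1-/- (SE 0.17, adjusted p = 0.0025) and by 0.91 in Yy1-/- Smc3+/- (SE 0.17, adjusted p = 0.00153). Lamtor1 rose and Tsc2, which restrains mTORC1, fell in Yy1-/-, but neither was called without Yy1-/- replicates 1 and 2 (0.37, SE 0.14, for Lamtor1 and -0.98, SE 0.42, for Tsc2), and Tsc2 was also not called without the libraries with residual Yy1 reads. Of 6 other transcriptional regulators of the pathway, none rose and 1 fell in Yy1-/-, and 1 rose and 1 fell in Yy1-/- Smc3+/-. Foxo3, a factor that keeps an autophagy programme active in stem cells, fell in both genotypes, to 18 ± 2.95 CPM in Yy1-/- Smc3+/- and 17.7 ± 6.43 CPM in Yy1-/-, against 36.4 ± 9.25 CPM in Yy1+/+.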

How the data were processed

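RNA of sorted LSK cells was made into SMART-Seq v4 libraries, a kit that does not mark strand, per the labels' protocols. Per the submitters' processing notes the tools were STAR 2.5.2b and RSEM 1.3.0 with build mm10, and the sources used here name no other settings. The deposited tables hold, per the file headers, expected counts, in which reads shared between genes are divided, and TPM, which is corrected for length. Symbols and positions came from GENCODE M21 on GRCm38, where 55094 of 55487 identifiers matched with their version, 300 with another and 93 not at all. Expected counts were rounded. The test was that of edgeR 4.0.16 under R 4.3.3 (minimum count 10, minimum total 15, TMM factors, 1 model over 12 libraries, quasi-likelihood test in its current form), after a test on simulated data. Alternatives used the test's older form, DESeq2 1.42.0, limma 3.58.1 on log2 of TPM plus 1, other filters and scaling, effective length offsets, and libraries left out. No 2 libraries were identical. Replicate numbers follow accession order and pair nothing. The 38 genes and all lists were chosen with earlier results of these data known. Values in every library are given for the 2 genes of each role with the smallest p (1 for roles of 1 or 2 genes), for Tfeb, Tfe3, Mcoln1, Sqstm1 and the Atg8 family, and in each other list up to 2 called genes per direction were named. Ctsa, Ctsb, Ctsd, Tpp1 and others outside this rule were added after their values were seen.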

Additional observations from a re-analysis of the deposited data

Results flagged for a closer look

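In 10 of 114 sets of 4 libraries (38 genes in 3 genotypes), 1 library stood apart from the other 3, its gap to the nearest, as a part of the whole range, being above Dixon's critical value. Chance alone flags about 1 set in 20. In Yy1+/+ replicate 2 was high for Ctsa (277 CPM against 175 to 177 in the others, gap 0.973 of the range), Gla (23.4 against 8.51 to 10.8, 0.845), Map1lc3b (789 against 334 to 381, 0.896) and Sqstm1 (605 against 278 to 332, 0.834). In Yy1-/- replicate 1 was high for Glb1 (84.5 CPM against 69.6 to 71, 0.905) and Atg12 (136 against 88.8 to 92.7, 0.918). In Yy1-/- Smc3+/- replicate 1 was high for Glb1 (76.7 CPM against 64.8 to 66.4, 0.865) and Map1lc3a (19.4 against 13.8 to 14.5, 0.875), replicate 3 for Gla (27.4 against 12.6 to 14.7, 0.859) and replicate 4 for Atg4b (48.6 against 44.3 to 45, 0.833). All 10 stood out upward. For Glb1 and Atg4b the library that stood out was still below every Yy1+/+ library. Without Yy1+/+ replicate 2, Gla had a log2 fold change of 0.83 in Yy1-/- Smc3+/- (SE 0.28) and 1.11 in Yy1-/- (SE 0.28), and Map1lc3a had 0.75 (SE 0.23) and 0.71 (SE 0.23), all 4 then past the threshold of edgeR's test.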

How the results depend on the processing

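In Yy1-/- against Yy1+/+ the main count was 11 of 38 genes higher and 5 lower. It was 5 higher and 9 lower with limma on log2 of TPM plus 1. Without the 3 libraries with residual Yy1 reads, which leaves only replicates 1 and 2 of Yy1-/-, it was 17 higher and 4 lower. These were 44.7% and 10.5% of the 38, against 12.5% and 15% of all genes. Without the 2 libraries with high monocyte genes (Yy1-/- replicates 1 and 2), it was 3 higher and 6 lower. These were 7.89% and 15.8%, against 9.73% and 13% of all genes. Leaving out 1 library at a time gave 6 to 15 higher and 5 to 6 lower, the lowest, 6, without Yy1-/- replicate 1. In Yy1-/- Smc3+/- against Yy1+/+ the main count was 3 higher and 5 lower. It was 1 higher with no filter and 1 with the older quasi-likelihood fit, and leaving out 1 library gave 0 to 4 higher and 5 to 7 lower, with 1 without any of Yy1-/- Smc3+/- replicates 1, 2 or 4 or Yy1+/+ replicate 1, and 0 without Yy1+/+ replicate 3 or 4. In Yy1-/- Smc3+/- against Yy1-/- no gene of the 38 was called, except 10 lower when the libraries with residual Yy1 reads were left out, with 0 higher and 0 lower with any 1 library left out. Single libraries also decided calls in Yy1-/-. Lamp2 was not called without Yy1-/- replicate 1 or 2 or Yy1+/+ replicate 1 or 3, Gabarap without Yy1-/- replicate 1 or 2 or Yy1+/+ replicate 3, and Ctsa and Ctsb without Yy1-/- replicate 1. Ctsd and Hexa were called without Yy1-/- replicate 3 or 4, Tpp1 without replicate 1 or 2, Wipi2 without replicate 4, and Gusb and Becn1 without Yy1+/+ replicate 2. In Yy1-/- Smc3+/-, Atg3 was not called without Yy1+/+ replicate 3 or 4, and Ulk1 was called without Yy1-/- replicate 1 or 4 or Yy1+/+ replicate 2. The cause of these shifts was not tested. No called gene changed direction in any alternative. Of 16 genes called in Yy1-/-, 7 were called in all 22 alternatives, Ctss, Ctsz, Glb1, Ulk1, Atg3, Atg4b and Gabarapl1. Of 8 called in Yy1-/- Smc3+/-, 5 were, Tpp1, Glb1, Atg4b, Map1lc3b and Gabarapl1. Leaving out the named libraries and the older fit were chosen after seeing the data. No paired analysis was possible because the replicate numbers follow accession order and the labels pair no libraries.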
